A study of Mus musculus with 12 samples.

Results

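Glycolysis breaks glucose down to pyruvate and lactate, and many of its genes are also targets of the hypoxia-inducible factors (HIF). The genes described here are 36 members of these 2 overlapping groups, chosen by gene name: 17 glycolytic enzymes and 19 other hypoxia targets and pathway genes (glucose and lactate transporters, regulators of glycolytic flux, HIF subunits and their oxygen-sensing hydroxylases, mitophagy receptors, secreted vascular signals, collagen prolyl hydroxylase subunits, Ndrg1, Car9 and Ero1a). Of the 13894 genes tested on the arrays, 35 were members. The 36th, Gapdh, has a single probe under its own name, which was well above background in the yolk sac channel on 4 of the 12 arrays only and was not tested.

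RNA came from yolk sacs of CD1-background mouse embryos in 4 groups of 3 biological replicates: Baf250a/Arid1a V1068G homozygous mutants at E9.5, wild types at E9.5, the same mutants at E8.5 and wild types at E8.5 (embryonic days 9.5 and 8.5). The protein made from Arid1a is a DNA-binding part of SWI/SNF, a chromatin remodeller. Whether yolk sacs were pooled within a replicate is not stated in the labels, so p-values measure only the spread between these samples. In every group replicates 2 and 3 also carry the same slide barcode and array position in the file headers, so the headers alone do not show that they were separate hybridizations. Their log2 ratios, however, were not those of 1 hybridization. On replicates 2 and 3 the trophoblast gene Prl4a1 read 0.26 and 3.74 in mutants and 1.18 and 4.31 in wild types at E9.5. At E8.5 it read 0.54 and 5.70 in mutants, and the heart gene Myl7 read 0.01 and -1.47 in wild types. Each array set Cy5-labelled yolk sac RNA against Cy3-labelled RNA of whole wild-type newborn mice of mixed 129Sv and C57BL/6 background, with the dyes never swapped. Every value below is therefore a log2 ratio of yolk sac over newborn reference, comparable between samples for one gene but not between genes. A difference is a difference of log2 ratios, errors of differences are standard errors (SE) of the limma fit, and a gene is called where the p adjusted by Benjamini-Hochberg over all 13894 genes is under 0.05.

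In glycolysis, hexokinases trap glucose in the cell as glucose 6-phosphate, phosphofructokinases commit it to breakdown, and lactate dehydrogenases interconvert pyruvate and lactate. HIF is a pair of an oxygen-sensitive alpha subunit (Hif1a or Epas1) and a stable partner. In oxygenated cells prolyl hydroxylases such as Egln1 and Egln3 mark the alpha subunit for destruction, and when oxygen is low the pair binds hypoxia response elements and raises glucose uptake, glycolysis, mitophagy and vessel growth signals. The yolk sac feeds the rodent embryo before the placenta takes over, and its mesoderm makes the first blood and vessels.

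The arrays were of yolk sac by their markers, and 4 of them stood apart by the mean of a list of neighbouring-tissue transcripts. The visceral endoderm list (8 of 8 genes measured) had mean log2 ratios of 2.03 to 2.31 in mutants and 2.19 to 2.37 in wild types at E9.5, against 1.56 to 1.61 in mutants and 1.48 to 1.72 in wild types at E8.5, so it was higher at E9.5 on every array. Erythroid markers (9 of 10 measured) averaged 2.06 to 2.59 over the 12 arrays, and at E8.5 stood at 2.16 to 2.59 in mutants and 2.06 to 2.18 in wild types. Wild type E8.5 replicate 2 stood apart: its heart list (7 of 8 measured) averaged -1.76, against -2.86 to -2.47 on the other 11 arrays, and its neural list (2 of 5 measured) -0.75, against -1.81 to -1.69. The heart gene Myl7 was at 0.01 there and at -1.47 in wild type E8.5 replicate 3, against -3.14 to -2.50 elsewhere. Nkx2-5 of the heart list and the neural genes Sox1, Sox2 and Pax6 were not well above background in all 3 arrays of any group. Trophoblast markers (3 of 10 measured) averaged 3.19 in mutant E9.5 replicate 3, 2.73 in wild type E9.5 replicate 3 and 3.38 in mutant E8.5 replicate 3, against 0.43 to 1.06 elsewhere, while Prl8a8, Tpbpa, Ctsq and 4 other listed genes were not well above background. The measured trophoblast gene Prl3b1 read 1.75, 0.57 and 0.21 on these arrays, against 0.07 to 0.24 elsewhere, so it was not raised in mutant E8.5 replicate 3. In tissue RNA a lower value cannot tell fewer cells of a type from less RNA per cell. Each group had its own array position, and the effects of the pair cannot be told apart. A point mutation need not change the transcript's level, so the Arid1a probe does not check the labels: its log2 ratio averaged -0.19 ± 0.07 in mutants and -0.35 ± 0.03 in wild types at E9.5, and 0.02 ± 0.10 in mutants and -0.03 ± 0.08 in wild types at E8.5 (SD, n = 3 each).

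Promoter letters of 4 members are shown first, because Hk2 and Ldha were called lower and Bnip3 and P4ha2 higher at E9.5 than at E8.5 in both genotypes. The windows are RefSeq's for build GRCm38.p6, from 250 bases before to 50 bases after a transcript start, read 5′ to 3′ on the gene's strand. Capitals mark the core of the hypoxia response element, the letters ACGTG or GCGTG on either strand (CACGT or CACGC when read on the other). Overlapping matches, as in CACGTG, are merged to 1 stretch. Hk2 lies on the minus strand at chr6:82774405-82774704, Ldha on the plus strand at chr7:46845554-46845853 (the first of 2 listed starts), Bnip3 on the minus strand at chr7:138909457-138909756 and P4ha2 on the plus strand at chr11:54100674-54100973.
Hk2: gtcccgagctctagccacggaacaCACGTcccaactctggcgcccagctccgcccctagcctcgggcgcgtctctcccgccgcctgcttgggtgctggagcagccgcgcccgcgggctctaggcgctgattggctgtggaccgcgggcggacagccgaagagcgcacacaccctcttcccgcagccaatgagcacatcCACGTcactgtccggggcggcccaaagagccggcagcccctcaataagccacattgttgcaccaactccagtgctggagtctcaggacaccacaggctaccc
Ldha: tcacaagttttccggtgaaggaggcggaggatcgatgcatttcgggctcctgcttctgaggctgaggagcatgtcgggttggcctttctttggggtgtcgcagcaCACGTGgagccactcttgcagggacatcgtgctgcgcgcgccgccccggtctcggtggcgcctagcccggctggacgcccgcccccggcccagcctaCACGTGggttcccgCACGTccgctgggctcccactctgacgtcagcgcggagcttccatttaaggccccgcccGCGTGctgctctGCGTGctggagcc
Bnip3: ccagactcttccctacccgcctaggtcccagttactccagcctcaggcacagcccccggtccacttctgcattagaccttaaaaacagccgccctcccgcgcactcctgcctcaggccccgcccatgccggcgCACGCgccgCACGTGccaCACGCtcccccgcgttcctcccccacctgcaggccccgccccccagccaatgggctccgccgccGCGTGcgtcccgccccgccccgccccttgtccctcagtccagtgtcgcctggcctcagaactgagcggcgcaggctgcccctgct
P4ha2: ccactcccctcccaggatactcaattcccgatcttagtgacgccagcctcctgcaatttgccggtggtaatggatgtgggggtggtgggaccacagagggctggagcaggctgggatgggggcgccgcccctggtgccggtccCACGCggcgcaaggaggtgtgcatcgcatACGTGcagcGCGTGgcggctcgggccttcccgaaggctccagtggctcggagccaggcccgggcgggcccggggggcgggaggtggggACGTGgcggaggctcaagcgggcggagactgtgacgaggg
Hk2 had 2 such stretches, Ldha 5, Bnip3 4 and P4ha2 4. RefSeq windows were listed for 32 of the 36 members (not for Slc2a3, Epas1, Bnip3l and Ndrg1), and 29 of the 32 had a core in at least 1 window, 90.6%, against 46.7% of all 27025 genes with a window. By window the shares were 80.4% of 46 for the members and 43.8% of 32851 overall. The background was not limited to genes tested on the arrays, nor matched for base composition. These letters alone do not show that HIF binds there. By direction of the stage difference, cores were present in 6 of 6 listed members that fell and in 3 of 3 that rose at E9.5 in both genotypes, and in 15 of 18 called in neither. Gpi1, Tpi1 and Eno2 had none in these windows.

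As over all genes tested, more members were called between stages than between genotypes. In mutants 9 of 35 members were called between E9.5 and E8.5 (25.7%, close to the 21.6% of all genes tested). Of these, 6 were lower at E9.5 (10.6% of all genes) and 3 higher (11% of all genes). In wild types 14 of 35 were called (40%, against 23.8% of all genes), 11 lower at E9.5 (11% of all genes) and 3 higher (12.8% of all genes). The same 9 genes made up the mutant calls and were called the same way in wild types: the hexokinases Hk1 and Hk2, Ldha, the glucose transporter Slc2a1, the pyruvate dehydrogenase kinase Pdk1 and the fructose 2,6-bisphosphate regulator Pfkfb4 fell, and Ldhb, the mitophagy receptor Bnip3 and the collagen prolyl hydroxylase subunit P4ha2 rose. Groups did not overlap between stages for 19 of 35 members in mutants (38.4% of all genes) and for 16 in wild types (37.4% of all genes). The other 5 wild-type calls (Pgam1, Eno1, Pkm, Slc16a3 and Bnip3l) were all lower at E9.5. No member's stage difference was shown to differ between genotypes, since the interaction in limma called 0 members and 0 genes (0% of all genes), with 0 members and 795 genes at an unadjusted p under 0.05, and its smallest adjusted p among members was 0.879. The call split depends on the scaling: with median centring in place of loess, which shifts the median difference of all genes by 0.15 in mutants and 0.12 in wild types, 5 members were called higher and 1 lower in mutants, and 2 higher and 1 lower in wild types, and with Feature Extraction's processed signals 5 higher and 4 lower in mutants and 3 higher and 6 lower in wild types. Visceral endoderm markers were also higher at E9.5, with 5 of 8 called in each genotype, and their part in these differences was not tested.

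**Figure D1:**
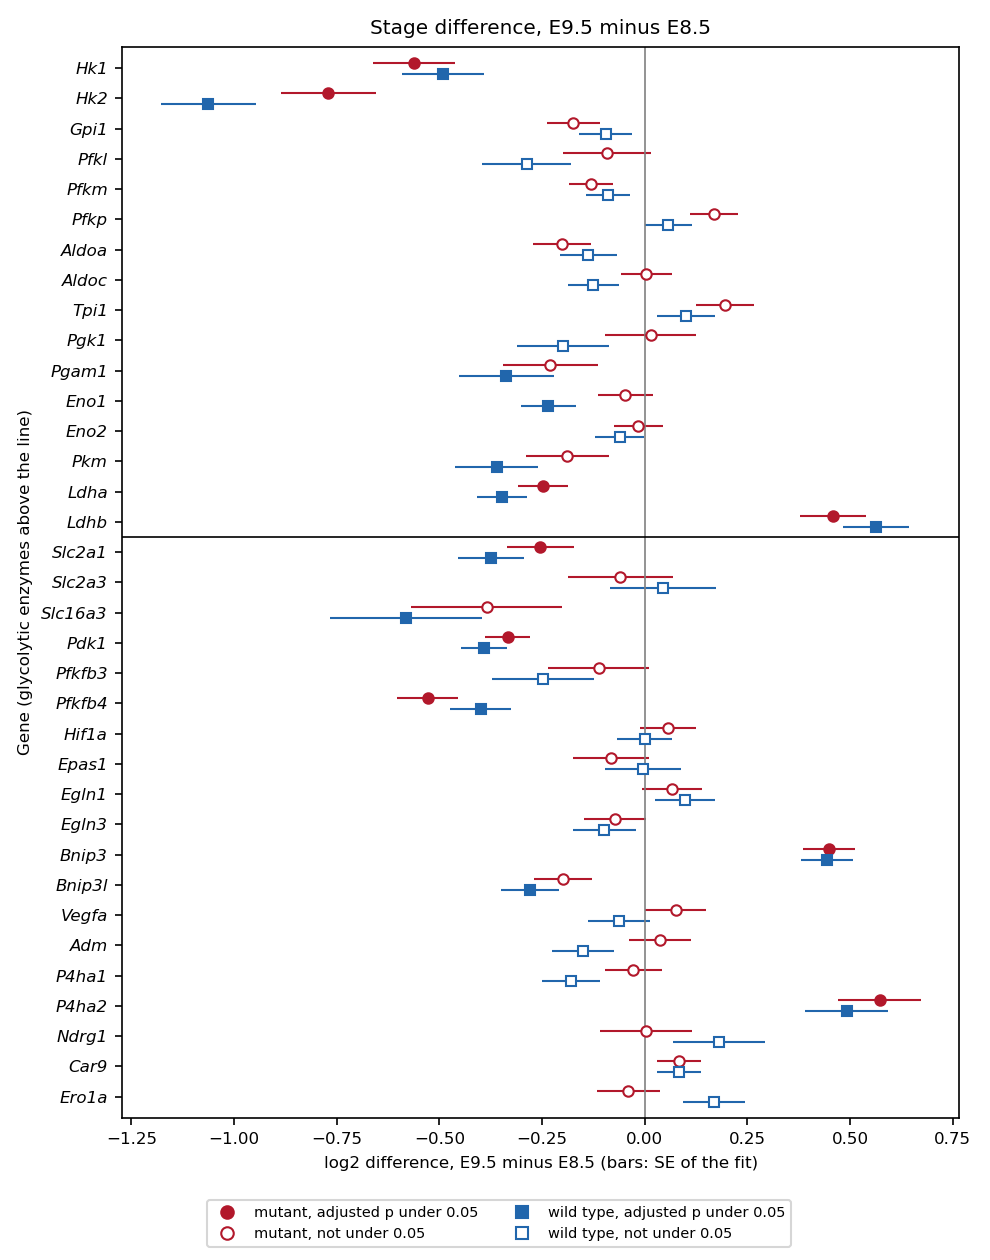
Stage differences of the 35 members, E9.5 minus E8.5, in log2 units, with mutants as circles and wild types as squares, SE bars, and filled symbols where the adjusted p is under 0.05. Hk2 lies farthest to the left (-0.77 in mutants, -1.06 in wild types), and Ldhb, Bnip3 and P4ha2 are the filled symbols on the right.

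Over the 16 glycolytic enzymes measured, the median stage difference was -0.11 in mutants and -0.17 in wild types, against -0.01 over all genes in each. With median centring it turns to 0.09 in mutants and shrinks to -0.01 in wild types, which is -0.05 and -0.11 relative to all genes. With Feature Extraction's processed signals it was -0.04 in mutants and -0.14 in wild types, and without wild type E8.5 replicate 2 it was -0.09 in wild types. Of these enzymes 11 lay below 0 in mutants and 13 in wild types, and 2 and 9 with median centring. Over the 19 other members the medians were -0.04 and -0.06, and both turn positive with median centring (0.14 and 0.09), which is -0.01 and -0.02 relative to all genes. The sign of the stage difference was the same in both genotypes for 14 of 16 enzymes (87.5%) and 14 of 19 other members (73.7%), against 76.6% of all genes. These genotype pairs share no yolk sac RNA but share the newborn reference and the scans.

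Hk2 had the largest fall in both genotypes, and Hk1 was next in mutants, though in wild types the called difference of Slc16a3 (-0.58) exceeded that of Hk1. Hk2, the inducible hexokinase, read -1.15, -1.28 and -1.37 in mutants and -1.42, -1.25 and -1.03 in wild types at E9.5, and -0.46, -0.53 and -0.50 in mutants and -0.23, 0.12 and -0.40 in wild types at E8.5. No E9.5 array reached the lowest E8.5 array. Hk2 fell by 0.77 ± 0.12 in mutants (adjusted p = 0.00035) and by 1.06 ± 0.12 in wild types (adjusted p = 2.67e-05). Within scans the Hk2 difference ran between -0.87 and -0.69 in mutants and between -1.37 and -0.63 in wild types, and without wild type E8.5 replicate 2, the highest array, it was -0.92 ± 0.10 in wild types (adjusted p = 3.19e-05). Hk1, the more widely expressed hexokinase, read -0.85, -1.17 and -1.25 in mutants and -1.10, -0.99 and -1.04 in wild types at E9.5, and -0.71, -0.47 and -0.41 in mutants and -0.46, -0.69 and -0.50 in wild types at E8.5. The stages again did not overlap in either genotype, and Hk1 fell by 0.56 ± 0.10 in mutants (adjusted p = 0.00126) and by 0.49 ± 0.10 in wild types (adjusted p = 0.00292). That Hk1 value comes from 1 bright probe: another pair of kept Hk1 probes, both dim, gave differences of -0.15 and -0.09 in mutants and -0.06 and -0.07 in wild types.

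At the lactate end the 2 dehydrogenase subunits moved in opposite directions with loess scaling and the probes used, less firmly for Ldha than for Ldhb. Ldha, the subunit that favours lactate formation, read 0.75, 0.87 and 0.87 in mutants and 0.83, 0.73 and 0.93 in wild types at E9.5, and 1.07, 1.02 and 1.13 in mutants and 1.17, 1.22 and 1.15 in wild types at E8.5. All 6 E9.5 arrays lay below all 6 E8.5 arrays. Ldha fell by 0.25 ± 0.06 in mutants (adjusted p = 0.0104) and by 0.35 ± 0.06 in wild types (adjusted p = 0.0011). The other Ldha probe gave 0.06 ± 0.07 in mutants and -0.13 ± 0.07 in wild types, so the probes disagree, and with median centring the mutant value was 0.02. The Ldha call was kept in 17 of 24 alternatives in mutants and 21 of 24 in wild types. Both genotypes lost it with median centring, Feature Extraction's processed signals and the authors' deposited table. Mutants also lost it with the mean over the gene's probes, without mutant E8.5 replicate 3 and without the trophoblast-high arrays. Ldhb, the heart-type subunit, read -2.42, -2.47 and -2.46 in mutants and -2.52, -2.23 and -2.29 in wild types at E9.5, and -2.83, -2.84 and -3.06 in mutants and -2.94, -2.82 and -2.98 in wild types at E8.5. Ldhb was higher on every E9.5 array than on any E8.5 array, and rose by 0.46 ± 0.08 in mutants (adjusted p = 0.00111) and by 0.56 ± 0.08 in wild types (adjusted p = 0.000226).

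**Figure D2:**
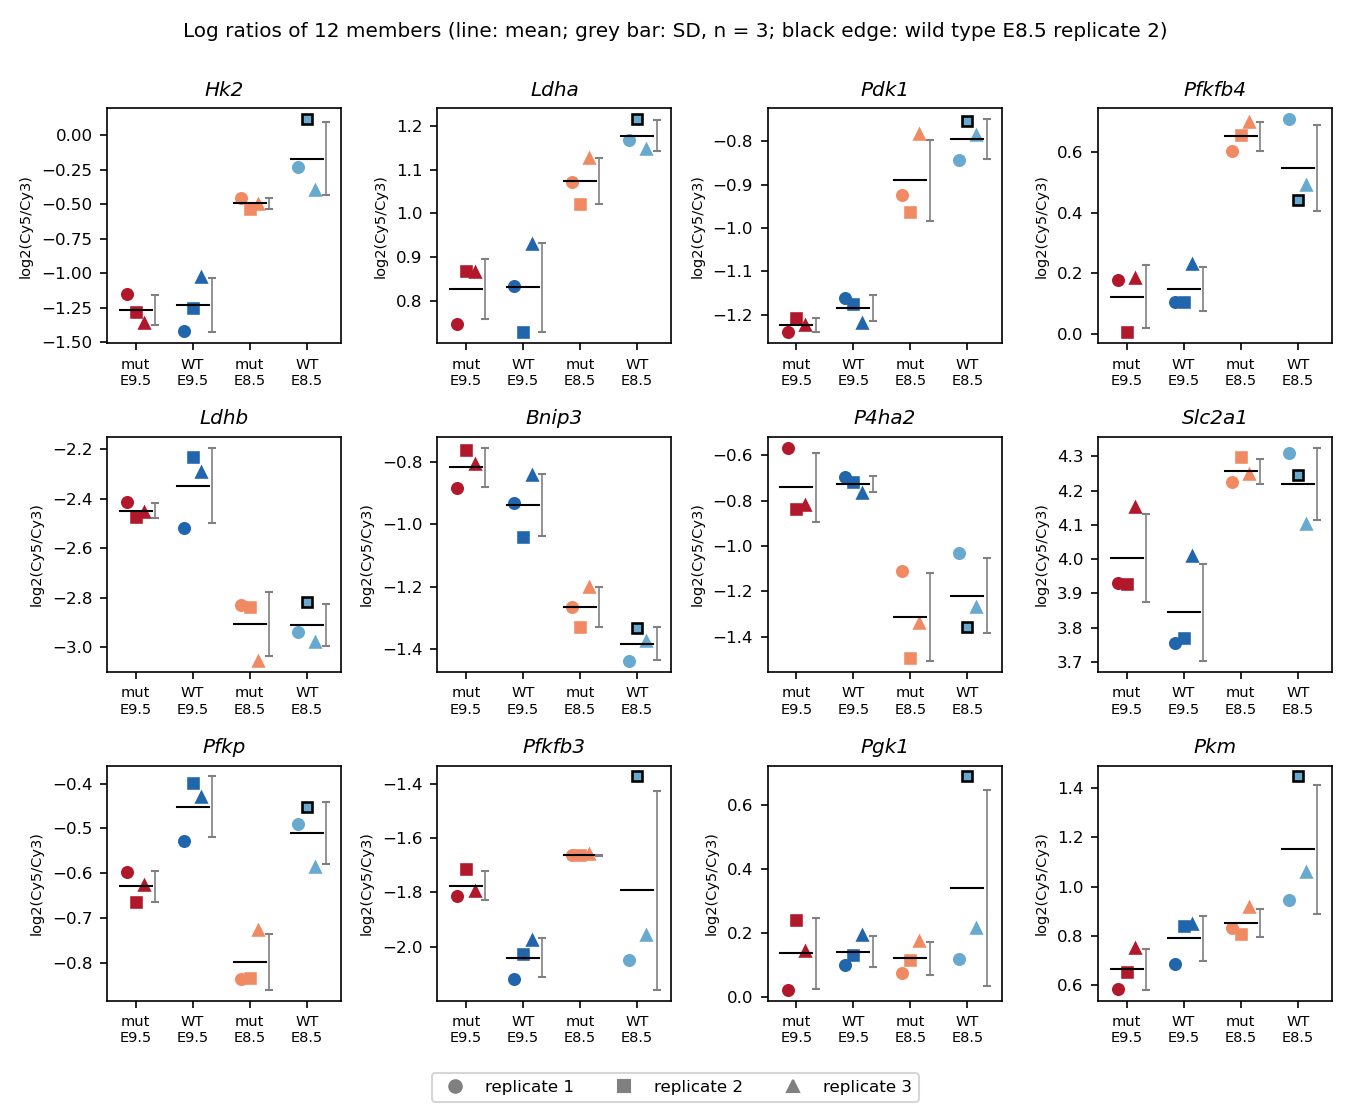
Log2 ratios of 12 members on each array (y axis, log2 Cy5/Cy3), with 1 symbol per replicate, the group mean as a line and the SD (n = 3) as a grey bar. Hk2, Ldha, Pdk1 and Pfkfb4 are low and Ldhb, Bnip3 and P4ha2 high in both E9.5 groups. Wild type E8.5 replicate 2 (black edge) is the highest array for Hk2, Ldha, Pdk1, Pgk1, Pkm and Pfkfb3.

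Of the 6 members that transport glucose or lactate or regulate flux, Slc2a1, Pdk1 and Pfkfb4 fell in mutants, and these and Slc16a3 fell in wild types, while Slc2a3 and Pfkfb3 were not called. Slc2a1, the GLUT1 glucose transporter, read 3.93, 3.93 and 4.15 in mutants and 3.75, 3.77 and 4.01 in wild types at E9.5, and 4.23, 4.30 and 4.25 in mutants and 4.31, 4.25 and 4.10 in wild types at E8.5. The stages did not overlap within a genotype, with replicate 3 the highest in each E9.5 group, and Slc2a1 fell by 0.25 ± 0.08 in mutants (adjusted p = 0.0374) and by 0.37 ± 0.08 in wild types (adjusted p = 0.00424). The mutant call was lost under 9 of 24 alternatives: without any one of mutant E8.5 replicates 1, 2 and 3 or mutant E9.5 replicates 1 and 2 (-0.27 to -0.22), with Feature Extraction's processed signals (-0.17, adjusted p = 0.187), with the authors' deposited table (-0.21, adjusted p = 0.131), with no filter on dim probes (adjusted p = 0.0546) and with median centring (-0.0049, adjusted p = 0.985). Pdk1, which shuts pyruvate out of the TCA cycle by inhibiting pyruvate dehydrogenase, read -1.24, -1.21 and -1.22 in mutants and -1.16, -1.17 and -1.22 in wild types at E9.5, and -0.92, -0.96 and -0.78 in mutants and -0.84, -0.75 and -0.79 in wild types at E8.5. The gap between the stages was wide relative to the spread, and Pdk1 fell by 0.33 ± 0.06 in mutants (adjusted p = 0.000777) and by 0.39 ± 0.06 in wild types (adjusted p = 0.000228). Its second probe gave -0.22 ± 0.08 and -0.12 ± 0.08. Pfkfb4, which sets the level of the phosphofructokinase activator fructose 2,6-bisphosphate, read 0.18, 0.01 and 0.19 in mutants and 0.11, 0.11 and 0.23 in wild types at E9.5, and 0.60, 0.66 and 0.70 in mutants and 0.71, 0.44 and 0.49 in wild types at E8.5. No E9.5 array reached an E8.5 array, and Pfkfb4 fell by 0.53 ± 0.07 in mutants (adjusted p = 0.000224) and by 0.40 ± 0.07 in wild types (adjusted p = 0.00161).

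Bnip3 and P4ha2, both hypoxia targets, moved the other way. Bnip3, a mitophagy receptor of the outer mitochondrial membrane, read -0.88, -0.76 and -0.81 in mutants and -0.93, -1.04 and -0.84 in wild types at E9.5, and -1.26, -1.33 and -1.20 in mutants and -1.44, -1.33 and -1.37 in wild types at E8.5. All E9.5 arrays were above all E8.5 arrays, and Bnip3 rose by 0.45 ± 0.06 in mutants (adjusted p = 0.000208) and by 0.44 ± 0.06 in wild types (adjusted p = 0.000211). Its relative Bnip3l, which clears mitochondria from maturing red cells, read -0.88, -0.95 and -1.03 in mutants and -1.02, -1.04 and -0.999 in wild types at E9.5, and -0.87, -0.69 and -0.70 in mutants and -0.86, -0.61 and -0.75 in wild types at E8.5. Bnip3l fell by 0.28 ± 0.07 in wild types (adjusted p = 0.0106), and was at -0.20 ± 0.07 in mutants (adjusted p = 0.0591, or 0.0487 with a replicate block). P4ha2, a catalytic subunit of the enzyme that hydroxylates collagen prolines, read -0.57, -0.84 and -0.82 in mutants and -0.69, -0.72 and -0.77 in wild types at E9.5, and -1.11, -1.49 and -1.34 in mutants and -1.03, -1.35 and -1.27 in wild types at E8.5. The stages were fully apart, and P4ha2 rose by 0.57 ± 0.10 in mutants (adjusted p = 0.00122) and by 0.49 ± 0.10 in wild types (adjusted p = 0.00312). Its partner isoform P4ha1 had differences of -0.03 ± 0.07 and -0.18 ± 0.07 (adjusted p = 0.83 and 0.0779).

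Each of the 9 genes called in both genotypes kept 1 sign in all 3 scans of both genotypes. That follows from their stage groups not overlapping and adds nothing to it. With the replicate number, which is also the scan, as a block, 12 members were called in mutants, adding Gpi1 (-0.17, adjusted p = 0.0374), Tpi1 (0.19, adjusted p = 0.0305) and Bnip3l, and 15 in wild types, adding Pfkl (-0.29, adjusted p = 0.0264). Without the 3 trophoblast-high arrays and wild type E8.5 replicate 2, an alternative added after the data were seen, 8 members were called in mutants and 11 in wild types. Ldha was the call lost in mutants, and in wild types Pgam1, Eno1, Pkm and Bnip3l were lost and P4ha1 was gained.

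Of the 5 members called in wild types alone, 4 lost their call without a single array. Wild type E8.5 replicate 2 had the highest value of the 12 arrays for 10 of 16 glycolytic enzymes and 4 of 19 other members, against 18.8% of all genes. The mean deviation of the 16 enzymes from each gene's own mean was 0.28 on that array, against -0.13 to 0.08 on the other 11. Pkm, pyruvate kinase, read 0.58, 0.65 and 0.75 in mutants and 0.69, 0.84 and 0.85 in wild types at E9.5, and 0.83, 0.81 and 0.92 in mutants and 0.94, 1.45 and 1.06 in wild types at E8.5. Pgam1, phosphoglycerate mutase, read 0.72, 0.92 and 0.91 in mutants and 0.78, 0.88 and 0.996 in wild types at E9.5, and 1.02, 1.101 and 1.13 in mutants and 1.01, 1.58 and 1.08 in wild types at E8.5. For both genes the other wild-type E8.5 arrays lay closer to the mutants of that stage than replicate 2 did. Eno1, enolase 1, read 1.21, 1.21 and 1.16 in mutants and 1.14, 1.24 and 1.31 in wild types at E9.5, and 1.25, 1.30 and 1.17 in mutants and 1.35, 1.59 and 1.46 in wild types at E8.5. Slc16a3, the lactate exporter MCT4, read -1.21, -1.43 and -1.37 in mutants and -1.52, -1.45 and -0.90 in wild types at E9.5, and -1.02, -1.09 and -0.74 in mutants and -0.96, -0.22 and -0.95 in wild types at E8.5. In Slc16a3 wild type E9.5 replicate 3 (-0.90) also overlapped the E8.5 range, so only its mutant groups were apart. With all arrays the wild-type differences were -0.36 ± 0.10 for Pkm, -0.34 ± 0.12 for Pgam1, -0.24 ± 0.07 for Eno1 and -0.58 ± 0.18 for Slc16a3 (adjusted p = 0.0187, 0.0486, 0.0201 and 0.0343). Without that array they were -0.21 ± 0.07, -0.16 ± 0.08, -0.17 ± 0.07 and -0.34 ± 0.15 (adjusted p = 0.0519, 0.17, 0.0817 and 0.129), and 10 members instead of 14 were called in wild types. Pgam1 kept its call in only 7 of 24 alternatives. In mutants, where the estimates do not use that array but share its estimate of the spread, its removal raised the calls to 17 of 35, 12 lower and 5 higher, and those of all genes to 3367 of 13894, 1657 lower and 1710 higher. The heart and neural markers that are high on the same array are given above, and their part in these values was not tested.

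**Figure D3:**
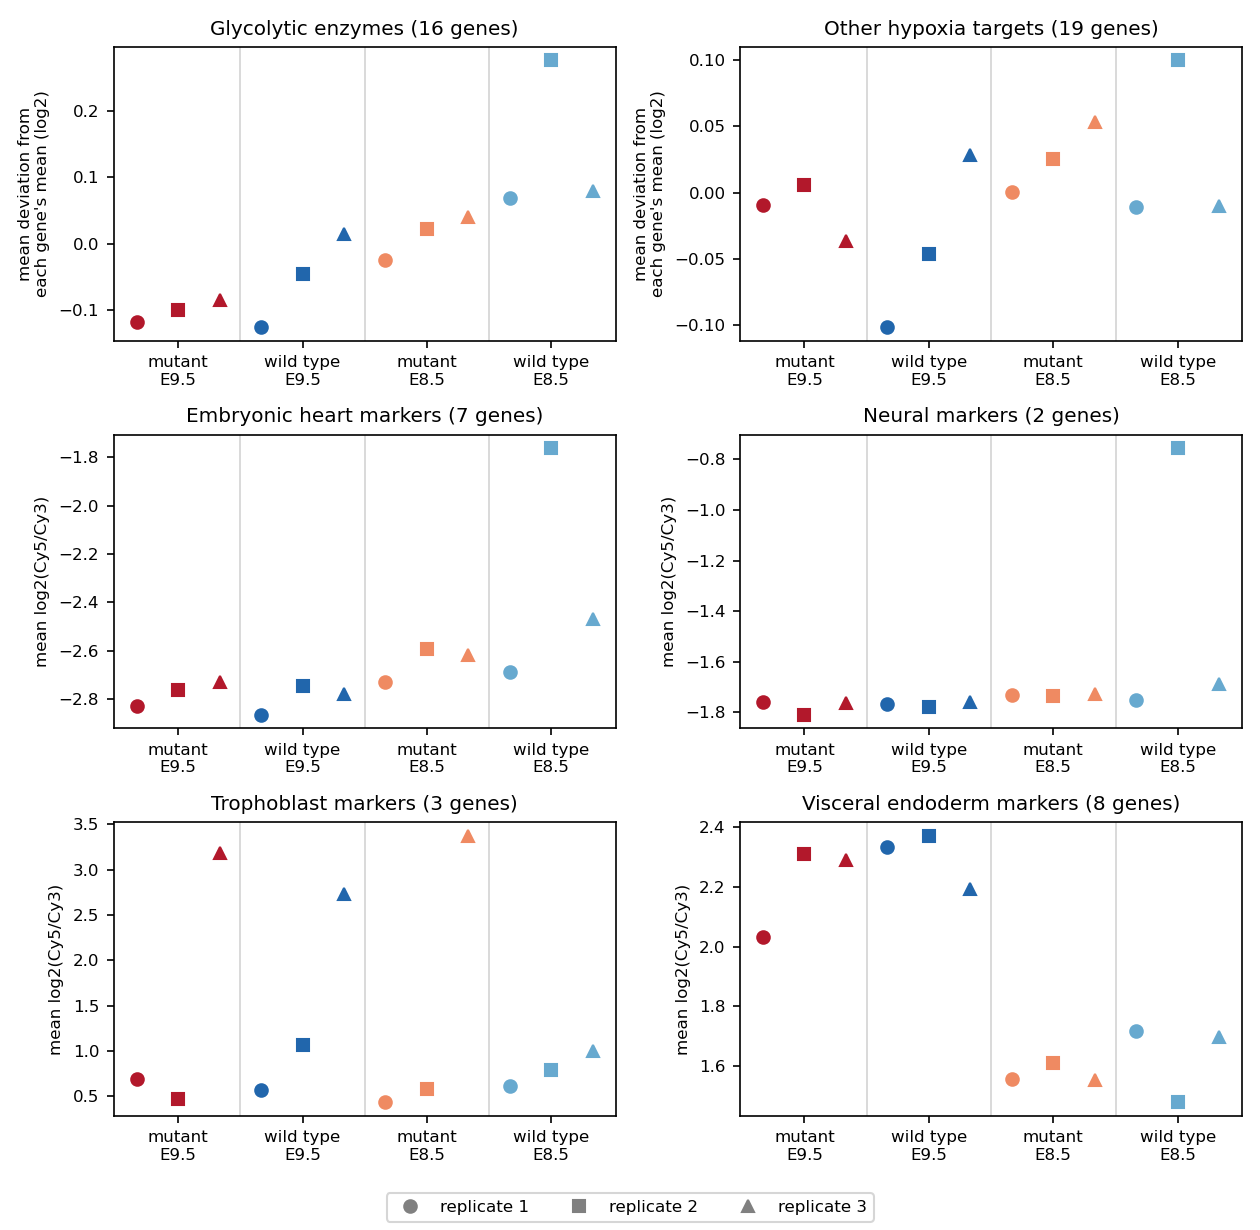
Mean values by array of the 16 glycolytic enzymes and the 19 other hypoxia targets (as deviations from each gene's mean, log2) and of 4 marker lists (mean log2 Cy5/Cy3), with 1 symbol per replicate. Wild type E8.5 replicate 2 is highest for the enzymes (0.28), the heart list (-1.76) and the neural list (-0.75), replicate 3 of 3 groups is high in trophoblast markers, and visceral endoderm markers are higher in both E9.5 groups.

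Pgk1, phosphoglycerate kinase and a classical HIF target, was also highest on that array. It read 0.02, 0.24 and 0.15 in mutants and 0.10, 0.13 and 0.19 in wild types at E9.5, and 0.07, 0.12 and 0.18 in mutants and 0.12, 0.69 and 0.22 in wild types at E8.5. Apart from the 0.69 of wild type E8.5 replicate 2, all values lay between 0.02 and 0.24. Its stage difference was 0.01 ± 0.11 in mutants and -0.20 ± 0.11 in wild types (adjusted p = 0.949 and 0.219), and -0.03 ± 0.07 in wild types without that array. The second Pgk1 probe gave 0.02 and -0.20 with all arrays.

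**Figure D4:**
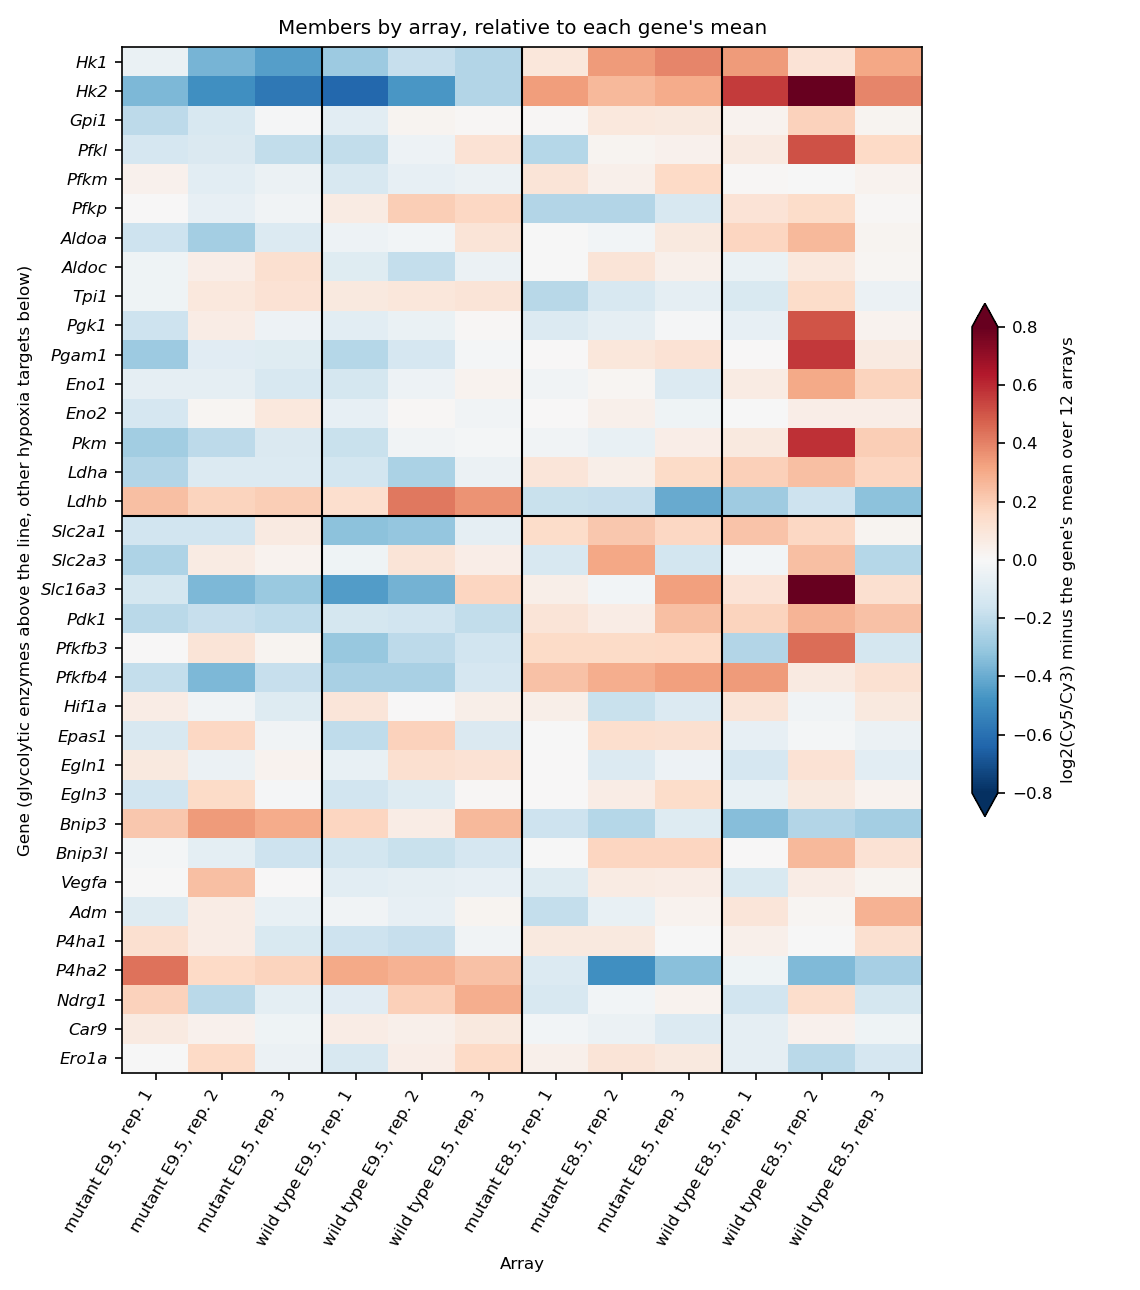
Heat map of the 35 members on the 12 arrays, as log2 ratios minus each gene's mean (colour scale clipped at 0.8 in both directions). Hk1, Hk2 and Pfkfb4 are blue at E9.5 and red at E8.5 and Ldhb, Bnip3 and P4ha2 the reverse, while wild type E8.5 replicate 2 is a red column through Hk2, Pfkl, Pgk1, Pgam1, Pkm and Slc16a3.

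No gene of the oxygen-sensing core was called between stages. Hif1a, the alpha subunit of HIF-1, read -0.15, -0.24 and -0.31 in mutants and -0.11, -0.20 and -0.16 in wild types at E9.5, and -0.16, -0.39 and -0.32 in mutants and -0.11, -0.24 and -0.13 in wild types at E8.5. Its stage difference was 0.06 ± 0.07 in mutants and 0.00 ± 0.07 in wild types (adjusted p = 0.614 and 0.998), and the 4 groups overlapped. Epas1, the alpha subunit HIF-2 alpha of endothelium, read -0.77, -0.48 and -0.68 in mutants and -0.85, -0.46 and -0.76 in wild types at E9.5, and -0.65, -0.51 and -0.52 in mutants and -0.71, -0.66 and -0.69 in wild types at E8.5. Its stage difference was -0.08 ± 0.09 in mutants and 0.00 ± 0.09 in wild types (adjusted p = 0.586 and 0.983). The prolyl hydroxylases Egln1 and Egln3, which are themselves HIF targets, had stage differences from -0.10 to 0.10 (adjusted p from 0.363 to 0.579). Vegfa, the endothelial growth factor, read -0.31, -0.06 and -0.30 in mutants and -0.39, -0.38 and -0.37 in wild types at E9.5, and -0.41, -0.24 and -0.25 in mutants and -0.43, -0.24 and -0.28 in wild types at E8.5. The E9.5 and E8.5 values of Vegfa overlapped, with differences of 0.08 ± 0.07 in mutants and -0.06 ± 0.07 in wild types (adjusted p = 0.534 and 0.588). Adm, the vascular peptide adrenomedullin, had 0.04 ± 0.08 and -0.15 ± 0.08 (adjusted p = 0.78 and 0.166).

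In the main fit none of the remaining members was called between stages. These were Gpi1, Pfkl, Pfkm, Pfkp, Aldoa, Aldoc, Tpi1, Eno2, Slc2a3, Pfkfb3, Ndrg1, Car9 and Ero1a. Their differences ran from -0.20 (Aldoa) to 0.19 (Tpi1) in mutants and from -0.29 (Pfkl) to 0.18 (Ndrg1) in wild types. In mutants Tpi1 was called higher under 8 alternatives and Pfkp under 7, and Gpi1 was called lower under 5 and Aldoa under 4. In wild types Pfkl was called lower under 4 alternatives and Pfkfb3 under 1, and Ero1a was called higher under 1. Eno2, the neuronal enolase, and Car9, the hypoxia-induced carbonic anhydrase, were dim, with the yolk sac channel well above background on 8 and 6 of the 12 arrays. For Slc2a3, the GLUT3 glucose transporter, the probe used gave -0.06 ± 0.13 in mutants and 0.04 ± 0.13 in wild types, and a dimmer one -0.18 ± 0.10 and -0.34 ± 0.10. The Pfkp probes also disagreed between stages. The probe used gave 0.17 ± 0.06 in mutants and 0.06 ± 0.06 in wild types. A second gave 0.05 ± 0.07 and -0.35 ± 0.07, and another -0.04 ± 0.06 and -0.13 ± 0.06. The interaction was 0.40 ± 0.10 for the second Pfkp probe, against 0.11 ± 0.08 for the probe used. The probes named for Gapdh-like sequences (MGC68323, LOC380687 and LOC624367) gave stage differences of -0.02 to 0.14 in mutants and -0.01 to 0.04 in wild types with no call, and cannot be assigned to Gapdh itself.

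Between genotypes few members moved, and mutant and wild-type values did not overlap for 5 of 35 members at E9.5 (17.2% of all genes) and 10 at E8.5 (17.9% of all genes). An unadjusted p under 0.05 in limma was found for 3 of 35 members at E9.5 (1661 of all 13894 genes) and 7 of 35 at E8.5 (1721 of all genes). At E9.5 no member was called (0 of 35, against 1.99% of all genes tested). At E8.5 there was 1 call in 35 (2.86%, against 1.44% of all genes), Pfkp, which encodes the platelet-type phosphofructokinase. It read -0.60, -0.66 and -0.63 in mutants and -0.53, -0.40 and -0.43 in wild types at E9.5, and -0.83, -0.83 and -0.73 in mutants and -0.49, -0.45 and -0.59 in wild types at E8.5. The mutant values lay below the wild-type values at both stages, without overlap. The Pfkp difference, mutant minus wild type, was -0.18 ± 0.06 at E9.5 (adjusted p = 0.172) and -0.29 ± 0.06 at E8.5 (adjusted p = 0.0224). Within scans the E8.5 difference was -0.34, -0.38 and -0.14. The probes disagreed: a second gave 0.15 ± 0.07 at E9.5 and -0.25 ± 0.07 at E8.5, and another 0.08 ± 0.06 and -0.01 ± 0.06. At E8.5 the call did not survive leaving out either of replicates 1 and 2 of the mutants or of the wild types, with differences from -0.33 to -0.26 over all single arrays left out. It was also lost with the mean over the gene's probes, with median centring, with the 6 E8.5 arrays alone and without the 3 trophoblast-high arrays.

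**Figure D5:**
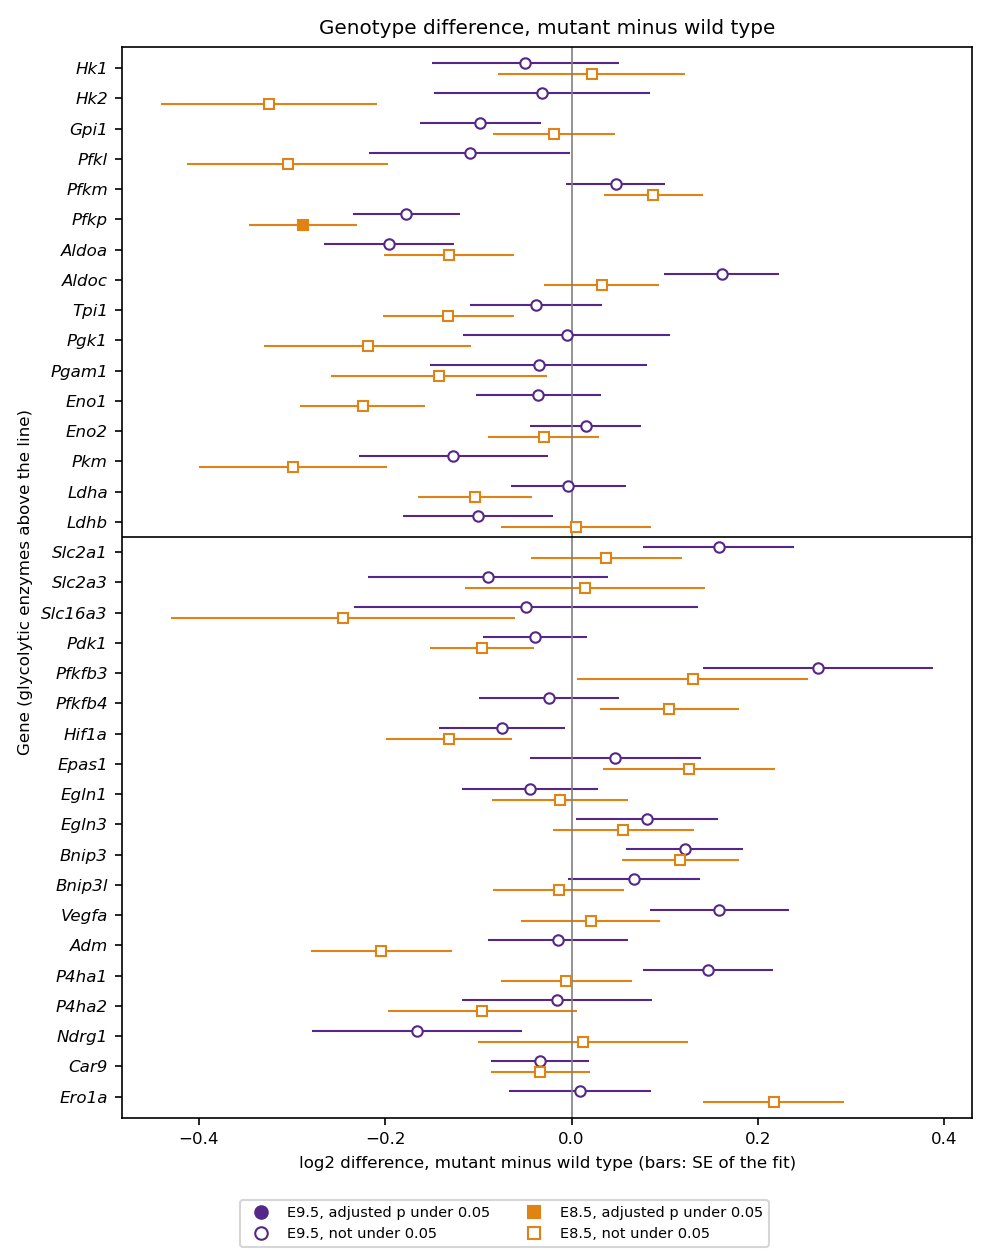
Genotype differences of the 35 members, mutant minus wild type, in log2 units, with E9.5 as circles and E8.5 as squares, SE bars, and filled symbols where the adjusted p is under 0.05. Pfkp at E8.5 (-0.29) is the only filled symbol, and at E8.5 Hk2, Pfkl, Pkm, Eno1 and Pgk1 lie to the left of 0 with open symbols.

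The glycolytic enzymes had a median genotype difference of -0.04 at E9.5 (13 of 16 below 0) and -0.13 at E8.5 (12 of 16 below 0), against medians of 0.00 over all genes at both stages. Single arrays moved the E9.5 values: without wild type E9.5 replicate 3 the median was -0.01 with 8 of 16 below 0, without mutant E9.5 replicate 1 it was -0.05 with 9 of 16, without wild type E9.5 replicate 1 it was -0.08 with 14 of 16, and without the 3 trophoblast-high arrays it was -0.01 with 9 of 16. Without wild type E8.5 replicate 2 the E8.5 median was -0.05, with 11 of 16 below 0. The 19 other members had medians of -0.01 at E9.5 and 0.01 at E8.5. Median centring gave enzyme medians of -0.13 at E9.5 and -0.29 at E8.5 (-0.07 and -0.20 relative to all genes) and medians of -0.06 and -0.11 for the other members, with all genes at -0.06 and -0.09. Among the uncalled E8.5 differences below 0 the 4 farthest from it were Hk2 (-0.32 ± 0.12), Pfkl (-0.30 ± 0.11), Pkm (-0.30 ± 0.10) and Slc16a3 (-0.25 ± 0.18), with adjusted p from 0.199 to 0.662. Without the array these were -0.18 ± 0.10, -0.17 ± 0.09, -0.15 ± 0.07 and 0.00 ± 0.15. At E8.5 the 9 erythroid markers were all higher in mutants, by a median of 0.21 with 0 called, and their part was not tested.

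Pfkfb3, which makes fructose 2,6-bisphosphate and so activates phosphofructokinase, was the member whose genotype call depended most on that array. It read -1.81, -1.72 and -1.80 in mutants and -2.12, -2.03 and -1.97 in wild types at E9.5, and -1.66, -1.66 and -1.66 in mutants and -2.05, -1.37 and -1.96 in wild types at E8.5. The mutants were higher than the wild types without overlap at E9.5, and at E8.5 they were higher than 2 of the 3 wild-type arrays. With all arrays the genotype differences were 0.26 ± 0.12 at E9.5 (adjusted p = 0.421) and 0.13 ± 0.12 at E8.5 (adjusted p = 0.746). Without wild type E8.5 replicate 2 the E9.5 difference kept its size and was called, as was the E8.5 difference of 0.34 ± 0.06 (adjusted p = 0.0119). The E9.5 difference does not use that array, so its call came from the shared estimate of the spread alone. Vegfa was likewise higher in mutants without overlap at E9.5, and therefore in each of the 3 scans, by 0.09, 0.32 and 0.07. Its unadjusted p in limma was 0.0517, against 0.0506 for Pfkfb3. Other kept Vegfa probes gave 0.13 ± 0.06 and 0.05 ± 0.08 at E9.5. Aldoc was also higher in mutants at E9.5 without overlap, by 0.16 ± 0.06 (unadjusted p in limma 0.0209, adjusted p = 0.281). At E8.5 Epas1 was higher and Ldha lower in mutants without overlap. The other Ldha probe gave -0.02 ± 0.07 at E9.5 and -0.21 ± 0.07 at E8.5. None of the core genes was called between genotypes: for Hif1a the mutant minus wild-type difference was -0.07 ± 0.07 at E9.5 and -0.13 ± 0.07 at E8.5, for Epas1 0.05 ± 0.09 and 0.13 ± 0.09, for Vegfa 0.16 ± 0.07 and 0.02 ± 0.07, for Slc2a1 0.16 ± 0.08 and 0.04 ± 0.08, and for Ldha 0.00 ± 0.06 and -0.10 ± 0.06, with adjusted p from 0.426 to 0.992. Ero1a, an oxidase of the endoplasmic reticulum, was at 0.01 ± 0.08 and 0.22 ± 0.08 (adjusted p = 0.986 and 0.216), and Aldoa at -0.20 ± 0.07 and -0.13 ± 0.07 (adjusted p = 0.23 and 0.479). Other kept probes gave -0.04 ± 0.05 and 0.05 ± 0.05 for Ero1a, and -0.09 ± 0.09 and -0.08 ± 0.09 for Aldoa.

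Genes of the neighbouring pathways were read from lists written beside the members, and the shares called are to be read against the 21.6% of all genes called between stages in mutants and 23.8% in wild types. Of 17 other glycolysis genes measured, 7 were called higher and 3 lower at E9.5 in each genotype (58.8% called in each), with median differences of 0.18 in mutants and 0.14 in wild types (0.06 without wild type E8.5 replicate 2). Those that rose include Hkdc1, a hexokinase-like gene (0.56 in mutants, 0.74 in wild types), Pklr, the liver and red cell pyruvate kinase (0.39 and 0.41), and Pfkfb1, the liver-type counterpart of Pfkfb4 (0.24 and 0.38, adjusted p = 0.0108 and 0.000523), whose direction was opposite to that of Pfkfb4. The monocarboxylate transporter Slc16a1 fell by 0.29 in mutants and by 0.60 in wild types. With median centring 6 were called higher in mutants, 7 higher in wild types and none lower. Of 27 genes of pyruvate entry and the TCA cycle, 7 rose and 2 fell in mutants (33.3% called) and 10 rose and 1 fell in wild types (40.7%), with medians of 0.12 and 0.16. Suclg1, a succinyl-CoA ligase subunit, rose by 0.51 in mutants and by 0.55 in wild types, and Idh2, mitochondrial isocitrate dehydrogenase, by 0.54 and 0.46. Mpc2, a mitochondrial pyruvate carrier subunit, rose by 0.35 and 0.43, and Fh1, fumarate hydratase, by 0.24 and 0.30. The falls, named after their values were seen, were Pdha1, the pyruvate dehydrogenase subunit that Pdk1 phosphorylates (-0.21 in mutants, -0.28 in wild types), and citrate synthase, Cs, in mutants (-0.24). Median centring leaves 6 higher in mutants, 5 higher in wild types and none lower. Of 7 pentose phosphate genes 4 fell in mutants (57.1%) and 3 in wild types (42.9%), with medians of -0.21 and -0.16. With median centring these turn to 0.035 and 0.032, which is -0.11 and -0.07 relative to all genes. Those that fell in both include Tkt (transketolase) by 0.33 and 0.30 and Pgd by 0.21 and 0.24. None was called with median centring.

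Of 16 gluconeogenesis and glycogen genes, 5 rose in mutants at E9.5 (31.2% called), and 6 rose and 1 fell in wild types (43.8%), with medians of 0.06 in each. Pygl, liver glycogen phosphorylase, rose by 1.04 in mutants and by 1.20 in wild types, and Slc37a4, the glucose 6-phosphate carrier, by 0.48 and 0.57. Gaa, the lysosomal enzyme that degrades glycogen, rose by 0.32 and 0.57. Gys2, liver glycogen synthase, rose by 0.82 and 0.40. With all arrays and loess scaling this was the only one of the 6 pathway lists with genes called between genotypes. Other settings added 1 call in the other glycolysis list at E9.5 (higher in mutants, without wild type E8.5 replicate 2) and 1 in the TCA list at E8.5 (lower, with Feature Extraction's processed signals). Fbp2, a fructose bisphosphatase named after its values were seen, read -0.82, -0.59 and -0.75 in mutants and -0.13, 0.02 and 0.03 in wild types at E9.5, and -1.03, -0.88 and -1.11 in mutants and -0.56, -0.31 and -0.40 in wild types at E8.5. It was lower in every mutant array than in any wild-type array of the same stage, with differences of -0.69 ± 0.08 at E9.5 (adjusted p = 0.000412) and -0.58 ± 0.08 at E8.5 (adjusted p = 0.0019). Gys2 read -1.72, -1.75 and -1.73 in mutants and -2.17, -2.23 and -2.34 in wild types at E9.5, and -2.49, -2.52 and -2.64 in mutants and -2.73, -2.50 and -2.70 in wild types at E8.5. It was higher in mutants at E9.5 without overlap, by 0.51 ± 0.07 (adjusted p = 0.00112), and overlapped at E8.5 (0.09 ± 0.07, adjusted p = 0.663). Pygl read -1.88, -1.72 and -1.93 in mutants and -0.99, -0.99 and -1.32 in wild types at E9.5, and -3.18, -2.77 and -2.71 in mutants and -2.67, -2.41 and -1.83 in wild types at E8.5. Its mutant values were below the wild-type values at both stages, and the difference was called at E9.5 (-0.74 ± 0.17, adjusted p = 0.0401) and not at E8.5 (-0.58 ± 0.17, adjusted p = 0.13). With median centring the list held 1 genotype call at each stage, lower in mutants.

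Of 12 HIF pathway regulators, 2 fell in mutants at E9.5 (16.7% called), and 3 fell and 1 rose in wild types (33.3%), with medians of -0.01 and 0.03. With median centring the medians were 0.16 and 0.15, which is 0.02 and 0.04 relative to all genes. Cited2, which competes with HIF for the coactivator CBP/p300, read 1.30, 1.33 and 1.25 in mutants and 1.22, 1.24 and 1.30 in wild types at E9.5, and 1.97, 2.19 and 2.12 in mutants and 2.12, 2.34 and 2.16 in wild types at E8.5. The stages were far apart in both genotypes, and Cited2 fell by 0.80 in mutants and by 0.96 in wild types (adjusted p = 3.54e-06 and 7.58e-07). Of 29 other HIF targets, 8 rose and 2 fell in mutants (34.5% called) and 5 rose and 3 fell in wild types (27.6%), with medians of 0.13 and 0.08. Hilpda, a lipid droplet protein, rose by 0.43 and 0.33, and P4hb, the partner subunit of the P4ha enzymes, by 0.38 and 0.33. Angptl4, a lipoprotein lipase inhibitor, fell by 0.19 in mutants and by 0.32 in wild types, and Stc2 fell by 0.57 in mutants. No gene of the 2 HIF lists was called between genotypes at either stage in limma. There 2 of the 29 targets at E9.5 and 5 at E8.5, and 0 of the 12 regulators at either stage, had an unadjusted p under 0.05. Of all 13894 genes, 1661 at E9.5 and 1721 at E8.5 had one.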

How the data were processed

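Per the file headers, Agilent Feature Extraction 9.5.1.1 read 12 2-colour arrays with 45018 spots (1639 controls, 41174 distinct probes). The deposited files hold mean and local background intensity for each channel, processed intensity after the software's LOWESS, and a log10 ratio of processed Cy5 over Cy3, per the file headers. The authors' deposited table holds log2 ratios of 19007 probes, centred on each probe. The filter behind it is not stated, and its columns (medians -0.0061 to 0.004) correlated at 0.9986 to 0.9994 with the centred processed ratios.

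With data.table (version 1.17.8) and limma (version 3.58.1) in R 4.3.3, background was corrected by normexp (offset 50) and ratios by loess within arrays, with control spots at weight 0. Spots marked as outliers were set to missing, as were those over 20 units below local background, a rule chosen after normexp failed on mutant E9.5 replicate 3. Repeated spots were averaged. Probes well above background in Cy5 on all 3 arrays of at least 1 group were kept (20065), and each gene took its brightest probe, leaving 13894 genes and 40 missing values. Median Cy5 signals were 43.1 to 46.8 intensity units over local backgrounds of 35 to 37, and the number of arrays limits the precision (median SE of a genotype difference 0.0674). Names came from a RefSeq gene table by accession (23483 probes), current symbol (6678) or older symbol (2887), and 8126 probes kept the file's name.

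Groups came from the labels. Limma fitted the means of all 4 groups (8 residual and 6.22 prior degrees of freedom), and 5 contrasts were tested with Benjamini-Hochberg adjustment over all genes. The procedure was tested on simulated data. Members and lists were chosen with earlier results of these data known. Array values are given for every member called in any contrast and for Hif1a, Epas1, Vegfa, Slc2a1, Pgk1 and Ldha, and at most 4 called genes are named from each other list, smallest adjusted p first. Exceptions are marked in the text.

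Each replicate number was scanned together, with 1 array of each group, per the file headers. Deviations from group means correlated between same-numbered arrays at 0.127 to 0.380 in the stage contrasts and the E9.5 genotype contrast, and at 0.240, 0.299 and 0.069 in the E8.5 genotype contrast. By this layout the numbers pair the samples in every contrast, and the correlations do not set the E8.5 genotype contrast apart. The main fit did not use the pairing, and the replicate block did. Replicates 2 and 3 of every group share a slide barcode and an array position, and were kept as separate replicates per the labels. Deviations of their Cy3 signals correlated at -0.214 to 0.426, against -0.287 to 0.388 for the other pairs within a group. Alternatives were other background and scaling choices, filters, probe rules, blocks, array weights, subsets of arrays, each array left out, and the authors' deposited table.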

Additional observations from a re-analysis of the deposited data

How the results depend on the processing

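Hk2, Ldhb and Bnip3 in both genotypes and P4ha2 in mutants kept their stage calls under all 24 alternatives. With median centring 3 members were called between stages in wild types and 6 in mutants, 0 between genotypes at E8.5, and 1757 genes between stages in mutants, 1458 in wild types, 26 between genotypes at E9.5 and 10 at E8.5. The higher and lower genes then split 1679 to 78 in mutants and 1381 to 77 in wild types, against 1522 to 1475 and 1783 to 1525 with loess. Median centring also turned the mutant stage difference of Ldha to 0.0236, and the cause was not tested. Feature Extraction's processed signals gave 9 member calls in wild types and 162 genes between genotypes at E9.5, and split the mutant stage calls 1737 to 949. The authors' deposited table gave 9 and 181. The mean of a gene's probes left 0 members at E8.5, as did the 6 E8.5 arrays alone (123 genes). Array weights gave 392 genes between genotypes at E8.5 and 2 for the interaction. Without the 3 trophoblast-high arrays, 0 members and 86 genes were called between genotypes at E8.5, 124 genes at E9.5, 2 for the interaction and 1346 between stages in mutants. Leaving out wild type E8.5 replicate 2 as well, chosen after seeing the data, gave 0 members at E8.5, 12 genes for the interaction and 1833 between stages in mutants. The interaction could not be had from 6 arrays.

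With a replicate block, 1 gene was called for the interaction, and members called were 12 between stages in mutants, 15 in wild types, 0 between genotypes at E9.5 and 1 at E8.5, where Pfkp had an adjusted p of 0.0242. No member call was lost under the block.

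Leaving out single arrays gave 8 to 17 members and 2129 to 3367 genes between stages in mutants, and 10 to 16 members and 2292 to 3315 genes in wild types, with 17 and 10 both from leaving out wild type E8.5 replicate 2. Between genotypes the ranges were 0 to 1 members and 145 (without wild type E9.5 replicate 2) to 369 genes at E9.5, and 0 to 1 members and 93 (without mutant E8.5 replicate 2) to 222 genes at E8.5. For the interaction they were 0 members and 0 to 5 genes. Signals near the background limit Eno2, Car9, the second pair of Hk1 probes and Gapdh.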
